A study of Mus musculus with 2 samples.

Results

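Cadherins are surface proteins that hold cells together in the presence of calcium. The genes described here are those of the counted features named *Cdh* with a number or beginning with *Pcdh*. There were 92 such genes of 32286 listed, and 80 of them had at least 20 unique molecular identifiers (UMIs, each standing for a captured RNA molecule) over all nuclei. Of the 80, 48 belonged to the alpha, beta and gamma protocadherin clusters and 32 lay outside them. Nuclei came from vagus nerve ganglia of C57BL/6J mice, bought at an age of 8 to 9 weeks, that carry Rosa26-floxed-STOP-Cas9-eGFP, in which Cre switches on Cas9 and eGFP. All of the mice had been given AAVrg-Cre, a retrograde virus that carries Cre, in the liver 4 weeks earlier and were fed standard chow. The ganglia of 7 females (14 ganglia) and of 8 males (16 ganglia) were pooled by sex, and each pool gave 1 library. Sex, pool and library therefore cannot be told apart, so the values of both are given without a test.

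Classical cadherins bind the same or a related cadherin on a facing cell and are anchored to actin inside the cell by catenins. Type I members such as *Cdh1* (E-cadherin) and *Cdh2* (N-cadherin) form strong epithelial and neural junctions, and type II members such as *Cdh6* to *Cdh12* differ between kinds of neurons and glia. Nonclustered (delta) protocadherins act in weaker adhesion and in the outgrowth of axons. In the clustered protocadherins a neuron uses a few promoters of a large array, which gives it a surface identity by which its branches know each other.

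A nucleus had a median of 2381 UMIs in females and 2658 in males, of totals of 17435300 and 27529730. The libraries shared 8 barcode sequences. Nuclei were grouped without the *Cdh* and *Pcdh* genes into 29 clusters and then into 18 classes of at least 50 nuclei, which were called "-like" after marker genes. The jugular-like class (544 nuclei) had *Prdm12*, a transcription factor of nociceptors, at a level of 1.45 UMIs per 10000 UMIs of the class, against 0.118 in the nodose-like class (1286 nuclei). Cerebellar granule cell-like (464 female and 24 male nuclei), inhibitory neuron-like (67 and 8) and pituitary cell-like (69 and 93) nuclei were also present, which are not cells of a ganglion. The sympathetic neuron-like class held 9 female and 148 male nuclei. Brackets below hold exact 95% intervals (Poisson for a level, conditional binomial for a fold), which cover counting error only. RNA free in the droplets gives some UMIs of every gene in every class. A level at or below that of the macrophage-like class is read as background, except for *Cdh23* and *Pcdh20*, which were highest there. *Pcdh20* was at only 0.0352 there, and a single cluster of nodose-like nuclei was higher, at 0.0406 from 15 UMIs. Its highest class is therefore uncertain.

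Among the 32 genes outside the clusters, 11 were highest in a class of neurons, 9 in a class of glia, 9 in a class of stroma or vessels and 3 in another class. Of these 11, 4 were highest in inhibitory neuron-like and 2 in granule cell-like nuclei, which are not cells of a ganglion. Of all 80, 28.8% were highest in a neuron class against 26.1% of the 19305 genes with as many UMIs. Behind the 28.8% were 23 members, of which 5 were highest in inhibitory neuron-like, 6 in granule cell-like and 7 in sympathetic neuron-like nuclei. The nodose-like and the jugular-like class were the highest for 2 each, and the other neuron-like class for 1. The share highest in glia was 21.3% against 17.4%, and the share highest in stroma or vessels was 35% against 24.9%. Of the 28 members behind the 35%, 19 were clustered protocadherins, and outside the clusters the share was 28.1%. The 80 members had a median of 117.5 UMIs over all nuclei, against 624 for all genes. The highest class of a gene with few UMIs is less certain, so that these shares are not compared at like counts. The 3-fold rule asked for a level at least 3 times that of every other class, with at least 20 UMIs in that class. It was met by 3 of the 80 (*Cdh13*, *Cdh9* and *Cdh3*) or 3.75%, against 6.31% of all genes. *Pcdh18*, at 0.491 in mural cell-like nuclei from 10 UMIs, was under that minimum. A second count took the 13 classes with at least 50 nuclei in each library and a lower minimum of 10 UMIs in the class in each library. There 3-fold was passed in both libraries by 6 of the 80 (*Cdh13*, *Cdh6*, *Pcdh19*, *Cdh9*, *Cdh7* and *Cdh23*) or 7.50%, against 3.36% of all genes. The 3.75% and 7.50% thus come from unlike settings. *Cdh7* was highest in granule cell-like nuclei, which are not among the 13 classes. Over all classes of at least 50 nuclei of a library, 16 in the female and 14 in the male one, the members counted in both were *Cdh13*, *Cdh6*, *Cdh9* and *Pcdh19*. The mural cell-like class (44 female and 46 male nuclei) was in none of these sets of classes. Over both libraries it came next for *Cdh6* (1.03 against 2.39) and *Pcdh19* (2.26 against 4.25), under 3-fold. For *Cdh23* the adipocyte-like class came next (0.389 against 0.616). It had 33 male nuclei and is not among the 13 classes.

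**Figure D1:**
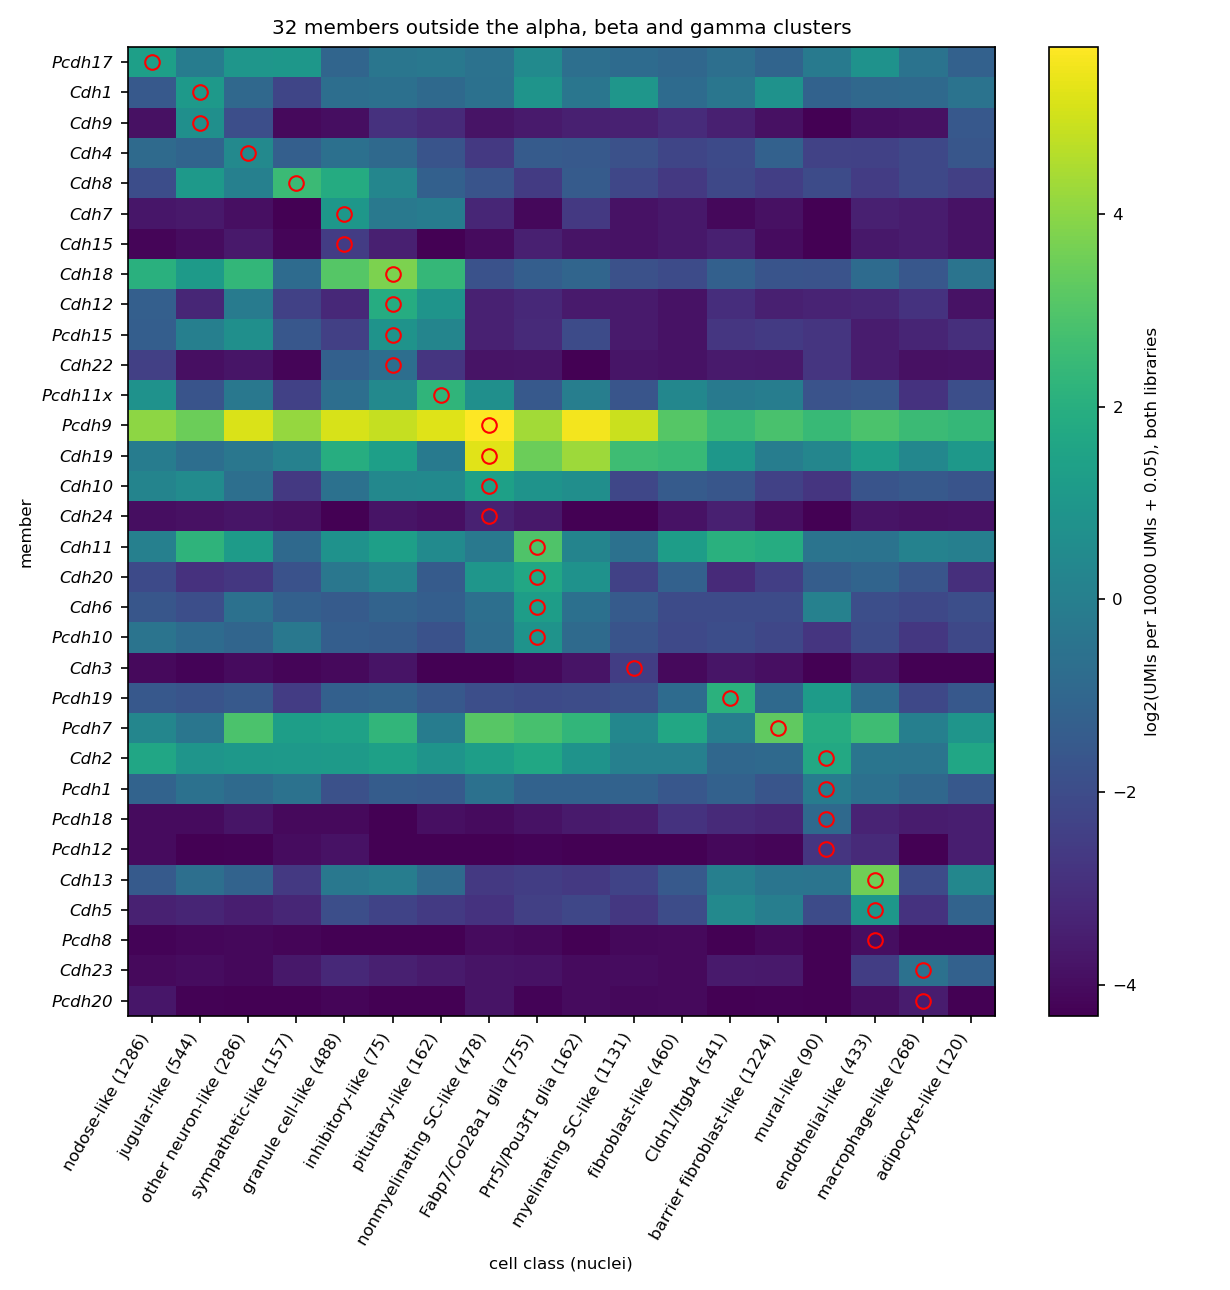
Levels of the 32 genes outside the alpha, beta and gamma clusters (rows) in the 18 cell classes (columns, with their numbers of nuclei), as log2 of UMIs per 10000 UMIs plus 0.05 over both libraries. A red circle marks the class of the highest level of each gene, and *Pcdh9* is bright in every column.

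*Pcdh9*, a delta protocadherin, took 85520 of the 197856 UMIs of the 80 genes and had the highest level of any member in 16 of the 18 classes. Its gene (ENSMUSG00000055421, mm10 chr14:93013410-93890679) is long, and introns were counted. Per 100 kb of gene it stood at 2.17 UMIs per 10000 over all nuclei, below *Cdh19* at 3.51 and above *Pcdh1* at 1.70. *Pcdh9* was highest in the nonmyelinating Schwann cell-like class at 53.2 [51.7-54.7], with 61.2 (female library) and 46.1 (male library). The unnamed class led by *Prr5l* and *Pou3f1* followed at 46.9, with 54.0 (female library) and 43.2 (male library). These neighbours in the order differed by 1.13-fold [1.09-1.18], less than the libraries differed within either class. The level was 30.8 in the myelinating Schwann cell-like class and 20.3 in the unnamed glia of *Fabp7* and *Col28a1*. Among neurons it ranged from 11.2 in the jugular-like class to 36.1 in the other neuron-like class, and it was 5.70 in the macrophage-like class. The 16 classes led by *Pcdh9* include the macrophage-like one. They also include the mural cell-like, the adipocyte-like and the unnamed class led by *Cldn1* and *Itgb4*, where the *Pcdh9* level was lower still. In these classes *Pcdh9* is read as background.

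*Cdh19* (ENSMUSG00000047216, mm10 chr1:110888326-110977584), a type II cadherin known from Schwann cell precursors, was the leading member of glia per length of gene. It stood at 43.1 per 100 kb in the nonmyelinating Schwann cell-like class, where *Pcdh9* stood at 6.07. Its level there was 38.5 [37.2-39.8], with 42.1 (female library) and 35.2 (male library). It was 19.3 (female 21.4, male 18.2) in the *Prr5l* and *Pou3f1* class, 11 (female 13.7, male 9.59) in the *Fabp7* and *Col28a1* glia and 6.00 (female 5.95, male 6.03) in the myelinating class. The libraries gave the same order of these classes, and no value of one class reached that of the next. The nonmyelinating class exceeded the *Prr5l* and *Pou3f1* class 1.97-fold [1.80-2.15] (female library) and 1.93-fold [1.79-2.09] (male library), and the myelinating class 7.08-fold and 5.84-fold. A *Cdh19* UMI was seen in 96.0% of the nonmyelinating and 9.70% of the macrophage-like nuclei (median UMIs 1690.5 and 1802), and in 92.0% and 5.24% after each nucleus was thinned to 1000 UMIs. In nodose-like (0.876) and jugular-like (0.576) neurons the level over both libraries was below that of the macrophage-like class (1.21). That held in males (0.759 and 0.513 against 1.97), whereas in females the neuron levels (1.14 and 0.703) were above the macrophage-like level of 0.341.

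The *Fabp7* and *Col28a1* glia differed from the nonmyelinating class in other members. *Fabp7*, a marker of satellite glia, was at 10.2 in them and at 3.37 in the nonmyelinating class. The whole marker lists separated the 2 less. The 8 nonmyelinating Schwann cell genes had a mean log2 fold over the other clusters of 1.41 in these glia and 1.44 in the nonmyelinating class. For the 9 satellite glia genes it was 1.16 and 0.41. The nonmyelinating list thus led in both, and these glia were left unnamed. *Cdh11*, a type II cadherin of mesenchyme and brain, was at 7.80 (female 8.41, male 7.49) against 0.790, a fold of 11.3 [7.93-16.6] (female library) and 9.02 [6.59-12.7] (male library). *Cdh6* was 4.0-fold [2.73-6.07] and 4.39-fold [2.90-6.94] higher, *Pcdh10* 3.02-fold and 3.29-fold, and *Cdh20* 1.91-fold [1.51-2.44] and 1.63-fold [1.29-2.10]. *Cdh20* was at 3.18 (female 3.96, male 2.78), *Cdh6* at 2.39 (female 2.80, male 2.18) and *Pcdh10* at 1.73 (female 1.90, male 1.64) in these glia, in each case the highest of the 18 classes. *Cdh20* was higher in the 35 astrocyte-like nuclei, at 6.26, which were set aside for their number. *Cdh10* went the other way, at 2.61 in the nonmyelinating class and 1.73 in the *Fabp7* and *Col28a1* glia. In the male library alone *Cdh10* was at 1.66 in the nonmyelinating class, below the pituitary cell-like class at 2.29, so that its highest class depended on the library.

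In myelinating Schwann cell-like nuclei the members at a level over 1 were *Pcdh9*, *Cdh19*, *Cdh1* and *Pcdh7*, the last at 1.22 and close to its macrophage-like level of 0.968. *Cdh1*, which joins the layers of myelin of one Schwann cell to each other, was at 1.87 (female 1.97, male 1.80). *Cdh3* (P-cadherin) was at 0.127 (female 0.115, male 0.136) from 31 UMIs, 5.12 times the next class. Its log2 difference to the next class, 2.36, was 0.70 as a mean over nuclei, 1.15 for females and 2.05 for males alone. The male value was past 3-fold. The 3-fold rule, which also asks for a minimum of UMIs in the class, was met by *Cdh3* under none of these 3 settings. Of the 31 UMIs 28 were in a cluster of 321 nuclei led by *Sptbn5* and *Cldn14*. The other 3 were in the cluster of 810 nuclei that holds *Prx* among its leading genes. The difference was 13.3-fold [1.94-573] (female library) and 14.6-fold [3.46-130] (male library), from few UMIs. *Cdh19* was also higher in the first of these clusters, 1.76-fold [1.5-2.08] and 2.04-fold [1.78-2.34].

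**Figure D2:**
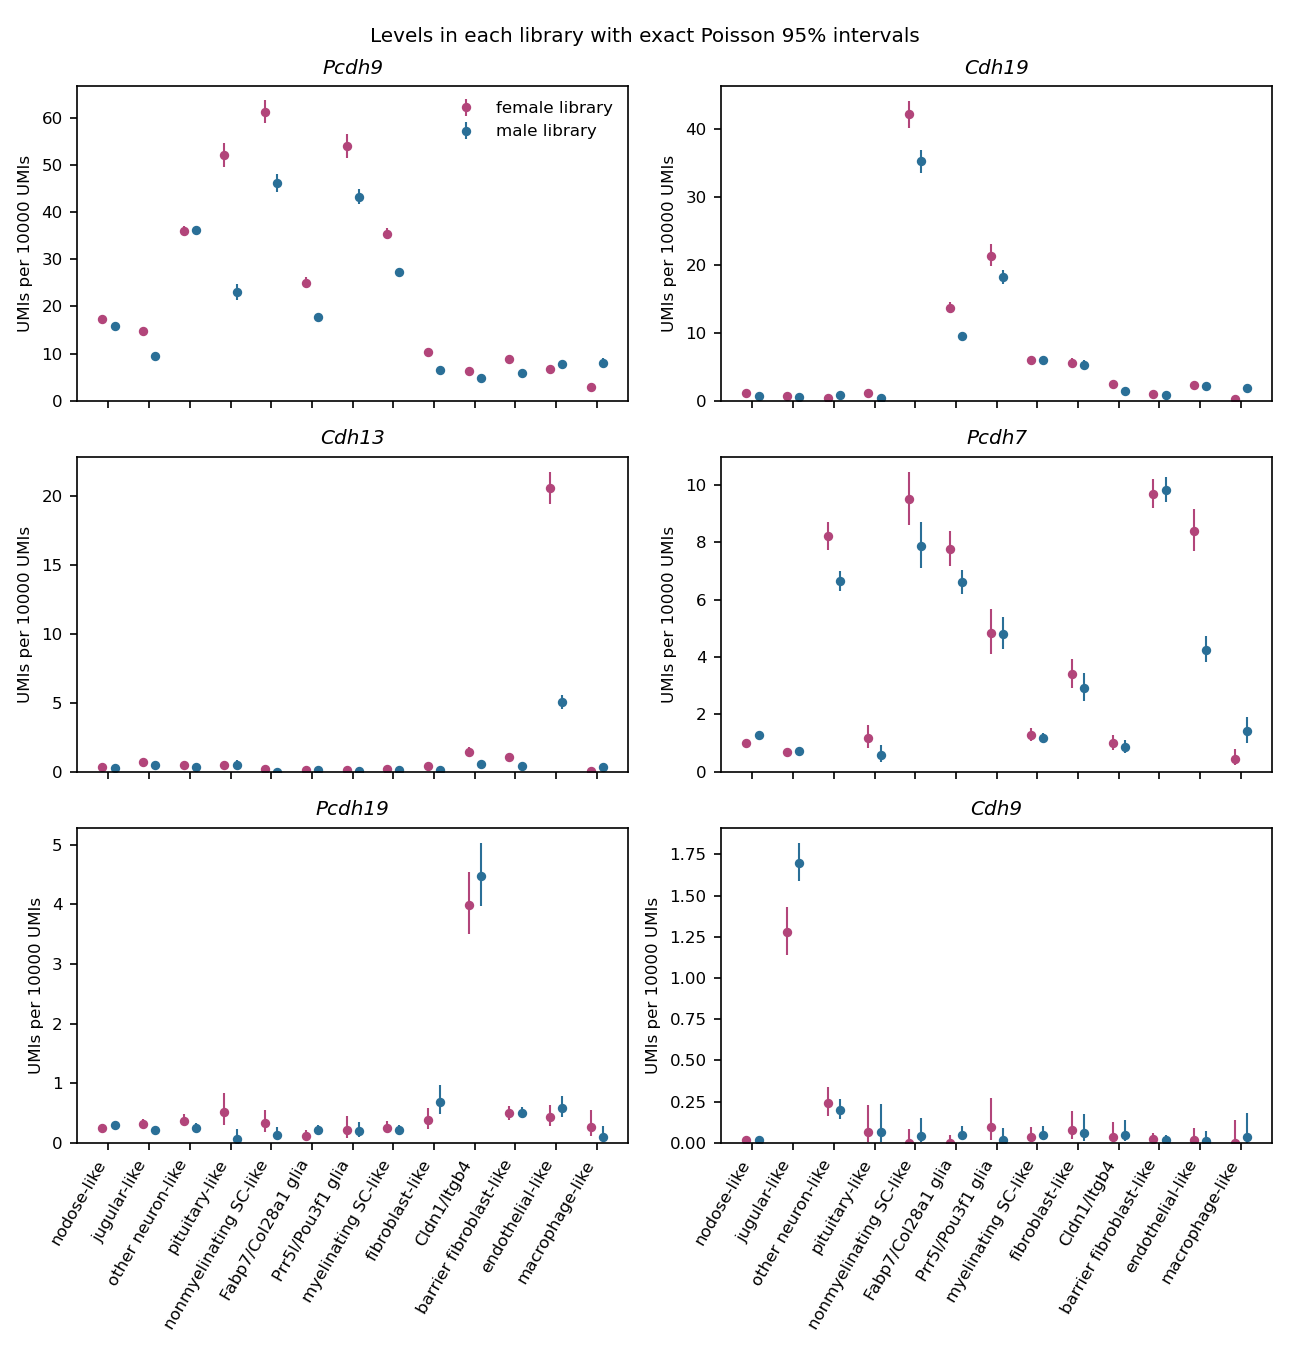
Levels of 6 members (UMIs per 10000 UMIs) in the 13 classes with at least 50 nuclei in each library, with the female and the male library side by side and exact Poisson 95% intervals as bars. The class of the highest level is the same in both libraries for all 6 members, although for *Pcdh7* in the female library the next class is within counting error. The *Cdh13* level of the endothelial cell-like class is 20.6 (female library) and 5.06 (male library).

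In neurons, nodose-like and jugular-like nuclei carried different members. The vagal sensory neurons of the nodose ganglion come from placodes and those of the jugular ganglion from the neural crest. The jugular-like class was higher in *Cdh8* (level 2.04 against 0.211), *Cdh1* (2.09 against 0.299), *Cdh11* (4.61 against 0.998) and *Cdh9* (1.56 against 0.0186). In the female library these folds were 8.57 for *Cdh8*, 7.86 for *Cdh1*, 4.88 for *Cdh11* and 66.2 for *Cdh9*, and in the male library they were 10.4, 6.71, 4.49 and 93.2. The nodose-like class was higher in *Pcdh11x* (1.68 against 0.253), *Pcdh17* (2.51 against 0.891), *Cdh18* (4.13 against 2.15) and *Cdh2* (3.06 against 1.82). The folds in the female and the male library were 7.35 and 6.36 for *Pcdh11x*, 3.06 and 2.72 for *Pcdh17*, 1.91 and 1.93 for *Cdh18* and 1.68 and 1.68 for *Cdh2*. The libraries agreed in direction for all 8 genes, which were chosen for this account after their values were seen. *Cdh1* was nearly as high in myelinating glia (1.87) as in the jugular-like class, and in the female library the *Fabp7* and *Col28a1* glia were higher (2.11 against 2.03).

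*Cdh9* and *Cdh10* are type II cadherins that lie next to each other on chromosome 15, with *Cdh6* before them and *Cdh12* after them. No protein-coding gene of the annotation lies between any neighbouring pair of these 4, although the gaps span 3555081, 1961853 and 1435029 bases. Over both libraries their highest classes were the *Fabp7* and *Col28a1* glia for *Cdh6*, the jugular-like class for *Cdh9*, the nonmyelinating class for *Cdh10* and the inhibitory neuron-like class for *Cdh12*. For *Cdh10* this was not so in the male library, and by cluster its level was higher in a cluster of jugular-like nuclei with *Tafa4* among its leading genes (4.37), where *Cdh9* was highest (7.46), than in the nonmyelinating class (2.61). The 150 bases before an annotated start of *Cdh6*, *Cdh9* and *Cdh10* are shown, with those of *Cdh20*, which shares its highest class with *Cdh6*. The sequences are those of RefSeq on GRCm38.p6, written 5′ to 3′ in the direction of the gene, and capitals mark each CG.
Cdh6, chr15:13173676-13173825, minus strand: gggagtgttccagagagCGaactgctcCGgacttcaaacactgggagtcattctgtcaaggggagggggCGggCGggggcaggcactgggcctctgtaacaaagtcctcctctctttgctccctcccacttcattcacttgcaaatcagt
Cdh9, chr15:16728765-16728914, plus strand: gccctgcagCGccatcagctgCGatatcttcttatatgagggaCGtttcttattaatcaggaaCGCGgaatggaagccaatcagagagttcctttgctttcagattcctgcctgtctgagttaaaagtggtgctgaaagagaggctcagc
Cdh10, chr15:18820179-18820328, plus strand: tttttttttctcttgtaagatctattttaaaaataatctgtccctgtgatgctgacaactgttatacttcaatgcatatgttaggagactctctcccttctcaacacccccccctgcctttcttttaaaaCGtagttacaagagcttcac
Cdh20, chr1:104768370-104768519, plus strand: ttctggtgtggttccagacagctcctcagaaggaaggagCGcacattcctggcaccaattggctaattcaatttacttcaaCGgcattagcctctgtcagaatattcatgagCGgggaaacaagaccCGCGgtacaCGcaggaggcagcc
The *Cdh10* window holds 1 CG, and 85.7% of 32851 promoter windows of this length hold as many or more. In the GENCODE annotation *Cdh10* starts at 18818947 and *Cdh9* at 16728756. Both windows therefore lie inside the gene of that annotation, that of *Cdh10* further in, and lie before a RefSeq start only. The windows of *Cdh6*, *Cdh9* and *Cdh20* hold 4, 5 and 6 CG, near the median of 4 over all windows. The letters TATAAA, on either strand, are in none of these 4 windows and in 7.57% of all. Over the 25 windows of 22 members the median was 6 CG.

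*Cdh9* RNA was concentrated in a single cluster of jugular-like neurons, of 114 nuclei with *Tafa4* among its leading genes. The level there was 7.46, with 8.30 in the 31 female and 7.19 in the 83 male nuclei. A cluster led by *Grik1* that holds *Mrgprd* among its leading genes (214 nuclei) had 0.309 and a cluster led by *Trpm8* (216 nuclei) had 0.0180. The *Tafa4* cluster exceeded the *Grik1* cluster 34.5-fold [22.5-55.3] (female library) and 21.1-fold [16.6-27.2] (male library). The 3-fold rule, with its minimum of UMIs, was also applied to the 27 clusters of at least 50 nuclei taken singly. *Cdh9* (24.1-fold over the next), *Cdh3* and *Cdh13* met it there, 3 of 80 against 5.37% of all genes. *Pcdh18* was 3.72-fold over the next in the mural cell-like cluster, but from 10 UMIs, under that minimum. A *Cdh9* UMI was seen in 25.9% of jugular-like nuclei and in 0.373% of macrophage-like nuclei, and after thinning in 10.8% and in 0 of 267.

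The 3 jugular-like clusters differed in several type II cadherins. *Cdh10* was highest in the *Tafa4* cluster, at 4.37 (female 3.83, male 4.54) against 0.854 in the *Grik1* cluster. *Cdh11* was highest in the *Grik1* cluster, at 7.81 (female 9.36, male 7.13), with 4.43 in the *Tafa4* and 1.12 in the *Trpm8* cluster. *Cdh1*, a type I member, followed the same order, at 3.03, 2.24 and 0.976. *Cdh8*, whose counts overlap another gene on its strand, was highest in the *Trpm8* cluster, at 3.18 (female 4.09, male 2.57), with 1.44 and 1.11 in the *Grik1* and *Tafa4* clusters. *Pcdh9* separated the *Trpm8* cluster (22.9, female 28.0, male 19.5) from the *Tafa4* (4.40) and *Grik1* (3.83) clusters. Over both libraries the levels of the *Tafa4* and *Grik1* clusters were below that of macrophage-like nuclei (5.70) and are read as background. By library this held for the *Grik1* cluster in males (3.96 against 8.02). In females the *Grik1* cluster (3.55) was above the macrophage-like nuclei (3.03). The *Trpm8* over *Grik1* fold of *Pcdh9* was 7.90 [7.06-8.86] (female library) and 4.93 [4.57-5.32] (male library). *Trpm8* is the receptor for cold, and *Mrgprd* marks nociceptors of the skin.

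The nodose-like clusters, led by *Cntnap5c* (429 nuclei), by *Cntn5* (225 nuclei) and by *Gm11234* and *Cysltr2* (632 nuclei), differed in several members. *Pcdh11x*, *Cdh11*, *Pcdh7* and *Cdh12* of the *Cntnap5c* cluster are set here against the *Cntn5* cluster only. *Pcdh11x* was at 3.23 (female 3.31, male 3.20) against 0.157 in the *Cntn5* cluster. The fold was 16.9 [11.5-25.9] (female library) and 23.9 [16.7-35.4] (male library). Of the 2267 *Pcdh11x* UMIs of the nodose-like class, 1412 were in the *Cntnap5c* and 58 in the *Cntn5* cluster. The rest were in the *Cysltr2* cluster, so that *Pcdh11x* was not confined to the *Cntnap5c* cluster. *Cdh11* was 28.2-fold [15.9-55.2] and 7.38-fold [5.71-9.68] higher than in the *Cntn5* cluster, and *Pcdh7* 8.19-fold and 10.6-fold, with the *Cntn5* levels at or below those of macrophage-like nuclei. *Cdh12* was at 0.962 in the *Cntnap5c* cluster and at 0.0325 in the *Cntn5* cluster. *Cdh18* was at 6.81, with 4.67 and 1.59 in the *Cntn5* and *Cysltr2* clusters, and *Cdh10* at 2.16, with 0.663 and 0.531. *Pcdh17* was at 3.40 and 3.04 in the *Cntnap5c* and *Cntn5* clusters and at 1.44 in the *Cysltr2* cluster. *Cdh2* differed little, from 2.82 to 3.35.

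**Figure D3:**
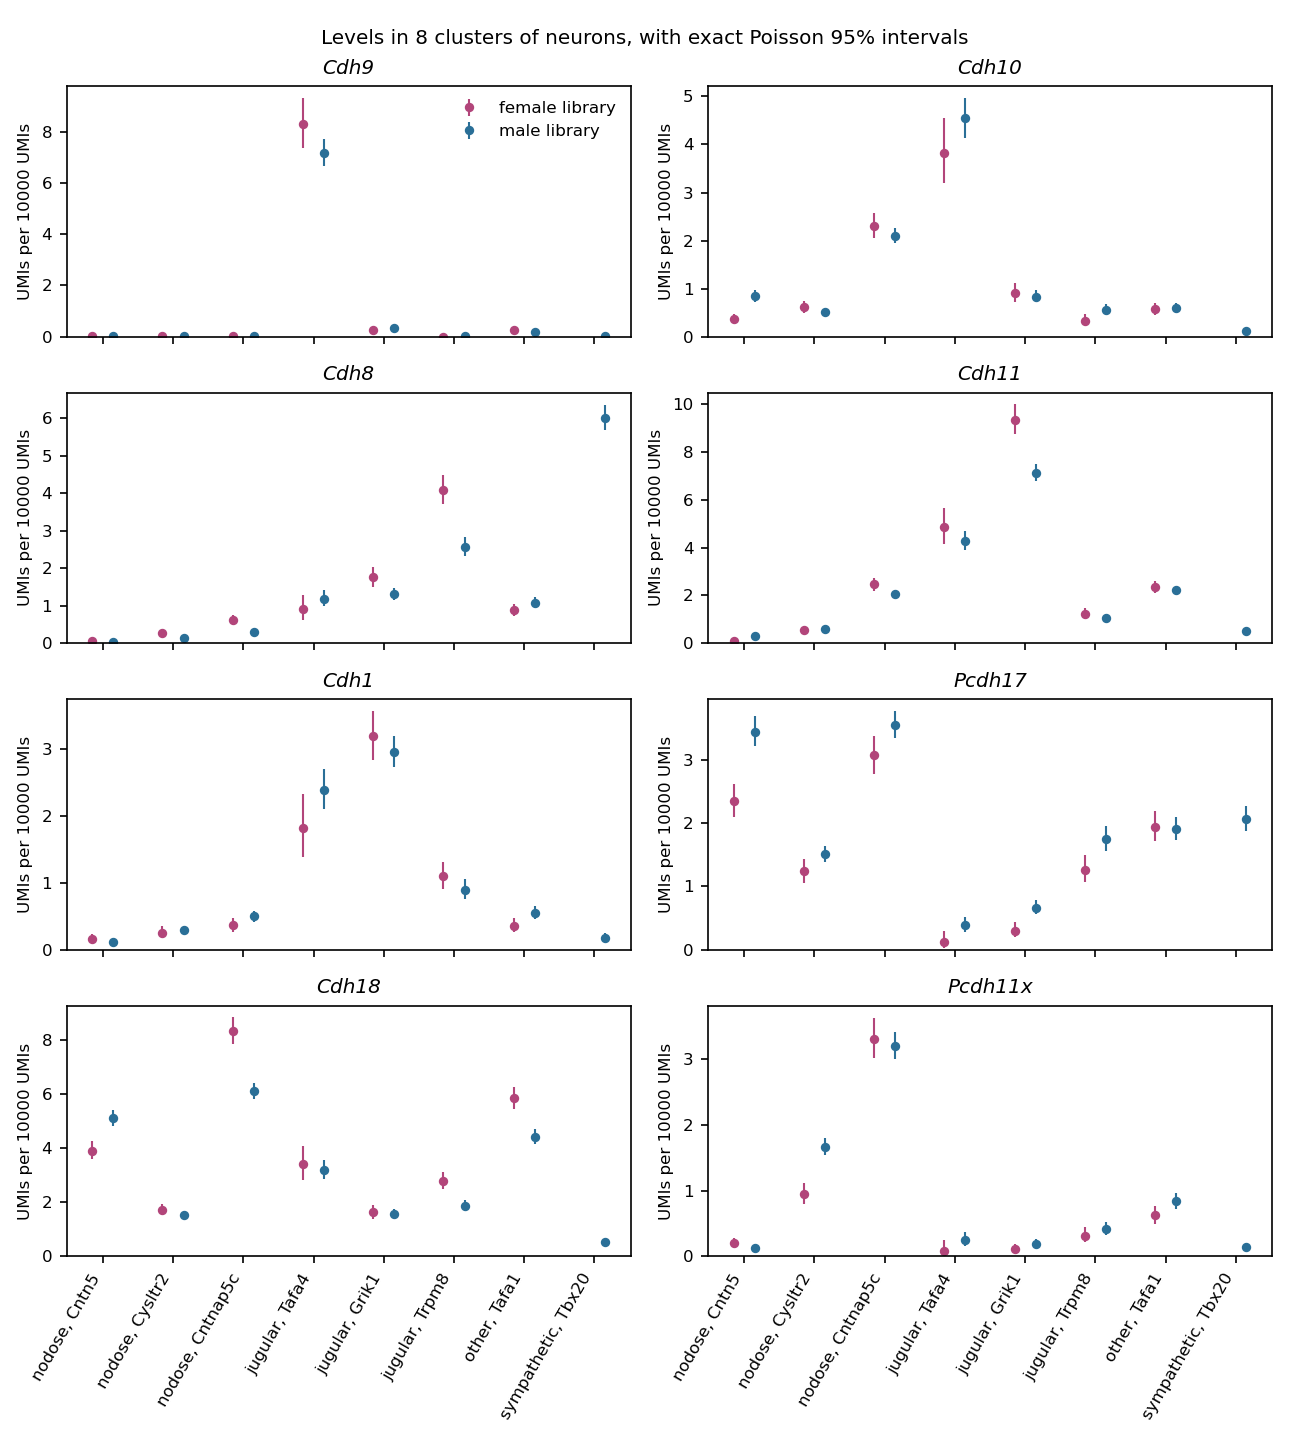
Levels of 8 members (UMIs per 10000 UMIs) in 8 clusters of neurons, named by class and a leading gene, with the libraries side by side and exact Poisson 95% intervals. *Cdh9* is high in the *Tafa4* cluster and near 0 in the others, *Cdh8* is highest in the *Tbx20* and *Trpm8* clusters, and *Pcdh11x* is highest in the *Cntnap5c* cluster. The female library is not drawn for the *Tbx20* cluster, where it had 9 nuclei.

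The other neuron classes had members of their own order. The sympathetic neuron-like class, with *Th* at 1.36, was the highest in *Cdh8*, at 5.76 and at 6.02 in its 148 male nuclei. It was low in *Cdh18*, at 0.525 (female 0.553, male 0.523), where the other neuron classes ranged from 2.15 to 13.2. The other neuron-like class, led by *Tafa1*, was highest in *Cdh4* (R-cadherin), at 1.29 (female 1.57, male 1.13), and had *Pcdh7* at 7.25, which was 8.29-fold higher than in the nodose-like class in the female and 5.19-fold in the male library. *Pcdh15*, a partner of *Cdh23* in the tip links of hair cells, was at 1.55 in it (female 2.21, male 1.13) and its counts overlap another gene on its strand. *Cdh18* (13.2), *Cdh12* (3.71), *Pcdh15* (1.76) and *Cdh22* (0.564) were highest in the inhibitory neuron-like class, and *Cdh7* (1.96) and *Cdh15* (0.124) in the granule cell-like class, nearly all of whose nuclei came from the female library. Across the 18 classes the members most alike were *Pcdh15* and *Cdh12* (Pearson r of log2 levels 0.83), *Cdh18* and *Pcdh15* (0.81), *Cdh7* and *Cdh22* (0.75), *Cdh19* and *Cdh20* (0.75) and *Cdh5* and *Cdh13* (0.72). These r describe 18 classes of the same 2 libraries and have no test.

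Vessels and sheaths carried yet other members. *Cdh13* (T-cadherin, which has no cytoplasmic tail and binds adiponectin) was at 11.8 [11.2-12.4] in endothelial cell-like nuclei, and the next class, the adipocyte-like one, at 1.20. Within the endothelial class a cluster of 104 nuclei with *Bmx* and *Eln* among its leading genes, which are known from arteries, stood at 39.8 (female 44.9, male 25.8). The cluster of 329 nuclei led by *Slco1a4* and *Lef1*, known from capillaries and barrier vessels, stood at 4.64 (female 7.85, male 2.87). The fold between them was 5.72 [5.02-6.52] (female library) and 8.98 [7.35-11] (male library). *Pcdh17* ran the other way, at 2.04 in the *Slco1a4* cluster and 0.352 in the *Bmx* cluster, with folds of 13 [4.93-48.7] and 2.27 [1.01-6.29]. *Cdh5* (VE-cadherin), the adhesion molecule of endothelial junctions, was at 1.94 and did not separate the clusters (1.83 and 1.97, fold 0.93 [0.67-1.26]). *Cdh5* was also above the macrophage-like class (0.0880) in the *Cldn1* and *Itgb4* class, at 1.29 (female 1.30, male 1.28), and in the barrier fibroblast-like class, at 0.929.

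The unnamed class led by *Cldn1* and *Itgb4* (541 nuclei) had the highest *Pcdh19*, at 4.25 (female 4.0, male 4.48), followed by the mural cell-like class at 2.26 (female 2.79, male 1.78). The fold between them was 1.43 [0.96-2.22] (female library) and 2.52 [1.58-4.24] (male library), so that the order of these neighbours was past counting error in the male library only. Against barrier fibroblast-like nuclei *Pcdh19* was 8.08-fold [6.19-10.7] and 8.96-fold [7.15-11.3] higher. *Pcdh19*, a delta protocadherin of the X chromosome, is known from a form of epilepsy. A UMI of it was found in 46.6% of the class and in 3.36% of macrophage-like nuclei, and after thinning in 28.1% and 2.62%. The window before its start is shown beside that of *Pcdh17*, whose highest class was the nodose-like one, since both hold many CG.
Pcdh19, chrX:133688994-133689143, minus strand: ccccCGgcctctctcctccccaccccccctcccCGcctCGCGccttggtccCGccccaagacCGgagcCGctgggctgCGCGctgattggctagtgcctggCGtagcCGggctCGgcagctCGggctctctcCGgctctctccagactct
Pcdh17, chr14:84443413-84443562, plus strand: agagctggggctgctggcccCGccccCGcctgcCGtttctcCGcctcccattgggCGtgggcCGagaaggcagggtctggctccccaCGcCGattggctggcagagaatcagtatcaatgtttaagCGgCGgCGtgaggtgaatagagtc
The *Pcdh19* window holds 14 CG, a number reached by 17.9% of all windows, and the *Pcdh17* window 11, reached by 26.0%.

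The barrier fibroblast-like class joined 3 clusters. *Slc47a1*, at 11.5 in the class, was at 27.7 in the cluster it leads with *Col25a1*, 2.81 in that led by *Prg4* and 0.986 in that led by *Slc6a20a*. Of the 8 marker genes, 3, 7 and 4 were at least 1.5-fold above the mean of the other clusters, in that order. Barrier fibroblast-like nuclei were the one class in which *Pcdh7* had the highest level of any member, at 9.77 (female 9.69, male 9.83). Nonmyelinating glia followed at 8.64, other neuron-like nuclei at 7.25 and the *Fabp7* and *Col28a1* glia at 7.0. In the female library *Pcdh7* of the nonmyelinating class (9.50) was within counting error of the barrier class. The barrier clusters differed more than the classes, with 22.4 (female 26.3, male 20.5) in the cluster led by *Col25a1* and *Slc47a1*, 3.22 in that led by *Prg4* and 1.35 in that led by *Slc6a20a*. The first exceeded the last 19.4-fold [15.8-24.1] (female library) and 15.1-fold [12.6-18.3] (male library). *Cdh11* had the same order, at 6.66, 3.24 and 1.34. *Cdh1* was highest in the *Prg4* cluster, at 3.87 (female 3.62, male 4.07), 6.15-fold and 6.33-fold above the *Slc6a20a* cluster (0.619).

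Fibroblast-like nuclei split in the same manner. The cluster with *Col15a1* and *Pdgfra* among its leading genes had *Cdh19* at 7.19 and *Pcdh11x* at 1.66, against 1.5 and 0.160 in the cluster led by *Nox4* and *Mmp13*. *Cdh19* differed 5.0-fold [3.53-7.25] (female library) and 5.83-fold [3.12-12.3] (male library). *Cdh11* was 5.41-fold [3.70-8.08] and 4.92-fold [3.02-8.03] higher in the *Nox4* cluster, at 5.52. *Cdh2* was highest in mural cell-like nuclei, at 3.34, close to the *Fabp7* and *Col28a1* glia (3.10), adipocyte-like (3.07) and nodose-like (3.06) nuclei, and it was lowest in the *Cldn1* and *Itgb4* (0.463) and barrier fibroblast-like (0.498) classes. *Pcdh1* (0.884), *Pcdh18* (0.491, from 10 UMIs) and *Pcdh12* (0.0982, from 2 UMIs) were also highest in the 90 mural nuclei. *Cdh23* was highest in macrophage-like nuclei, at 0.616 (female 0.909, male 0.361), followed by adipocyte-like nuclei at 0.389. *Cdh24*, *Pcdh8* and *Pcdh20* stayed below 0.05 in every class.

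The clustered protocadherins lie in a row on chromosome 18 and summed to 5147 UMIs, against 192709 of the members outside. The alpha and the gamma genes each share 3 last exons, and a read in those cannot be given to 1 gene, whereas the beta genes share none. Their summed alpha level was nearly even over several neuron classes, at 0.195 in nodose-like (female 0.237, male 0.177), 0.191 in jugular-like, 0.189 in other neuron-like and 0.205 in sympathetic neuron-like nuclei. It was 0.0330 in barrier fibroblast-like nuclei (female 0.0271, male 0.0370), which the nodose-like class exceeded 8.73-fold [3.30-32.7] (female library) and 4.78-fold [2.37-11.3] (male library). Against the *Fabp7* and *Col28a1* glia the folds were 2.79 [1.31-7.13] and 3.13 [1.61-6.96]. The macrophage-like alpha level, 0.0704, came from 4 UMIs.

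The gamma genes ran the other way. Their sum was 0.295 in nodose-like (female 0.352, male 0.269), 0.318 in jugular-like, 0.230 in other neuron-like and 0.210 in sympathetic neuron-like nuclei. It was 0.977 in fibroblast-like (female 1.09, male 0.852), 0.828 in barrier fibroblast-like (female 0.908, male 0.773) and 0.764 in endothelial cell-like nuclei. Barrier fibroblast-like nuclei exceeded nodose-like ones 2.58-fold [2.02-3.28] (female library) and 2.87-fold [2.35-3.51] (male library), and fibroblast-like exceeded jugular-like nuclei 2.99-fold and 2.89-fold. The gamma sums of these neurons were below that of macrophage-like nuclei (0.422 [0.271-0.628]), so that they cannot be told from background. Granule cell-like nuclei, which are neurons too, had 0.942. The beta sum in nodose-like nuclei (0.532) differed from that in barrier fibroblast-like nuclei (0.564) by a fold of 0.94 [0.81-1.11], and it ranged from 0.291 in adipocyte-like to 0.845 in sympathetic neuron-like nuclei.

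**Figure D4:**
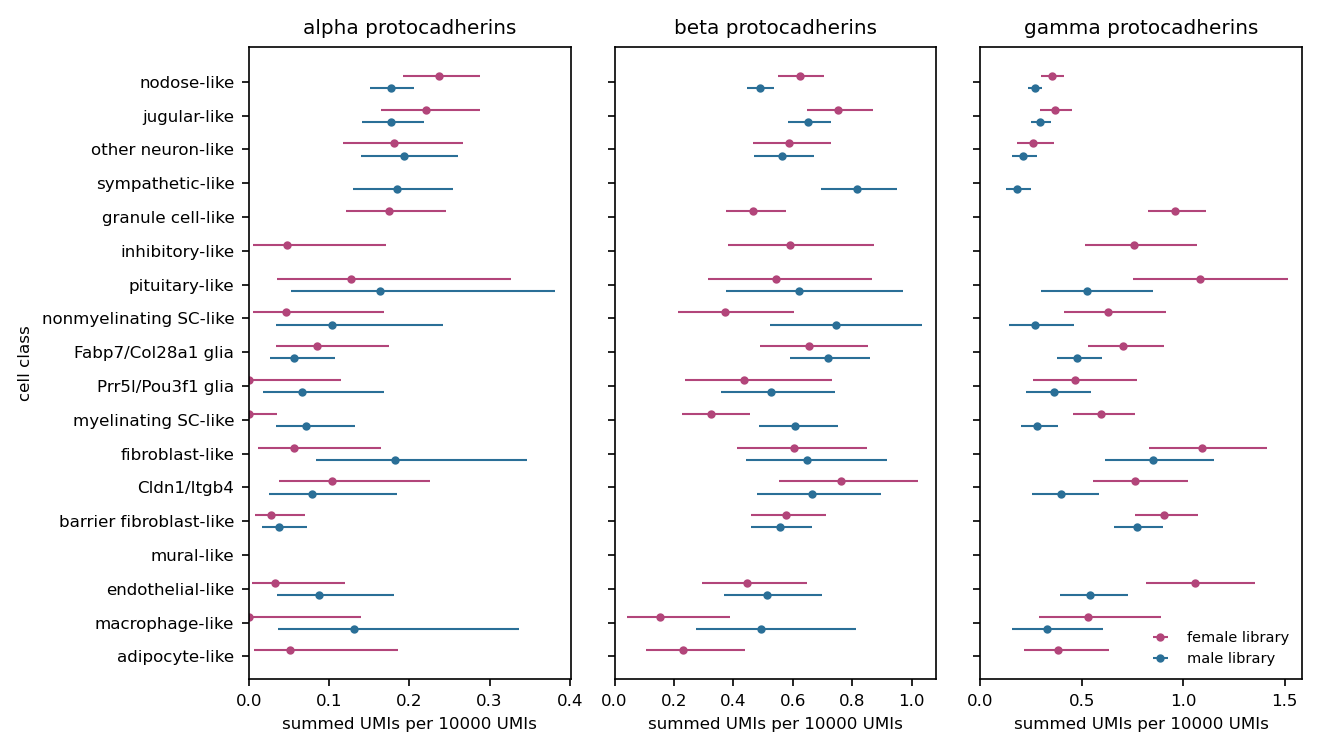
Summed levels (UMIs per 10000 UMIs) of the alpha, beta and gamma protocadherins in each class with at least 50 nuclei in a library, for the female and the male library with exact Poisson 95% intervals. The alpha sums of nodose-like, jugular-like and other neuron-like nuclei lie above those of barrier fibroblast-like nuclei, and the gamma sums lie below them.

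Of the 48 clustered genes kept, 12 were highest in a neuron class (against 26.1% of all genes), 8 in a glia class (17.4%) and 19 in a stroma or vessel class (24.9%). Most of these 12 were highest in sympathetic neuron-like or granule cell-like nuclei. None of the 48 met the 3-fold rule with at least 20 UMIs in the class (6.31%). These 48 genes had a median of 79.5 UMIs over all nuclei, against 624 for all genes, so that the minimum weighed more on them. Their count is therefore not read as a lack of difference between classes. Their highest classes can also rest on few UMIs, such as 2 of *Pcdhb9* in mural cell-like nuclei. *Pcdhga12* had the most UMIs (373), with its highest level of 0.205 in fibroblast-like nuclei, and *Pcdhb14* followed with 303. After thinning to 1000 UMIs a clustered UMI was found in 10.5% of nodose-like nuclei, and over the classes in 6.29% to 17.3%. After thinning to 10000 UMIs, a depth chosen after seeing the data and reached by 473 nodose-like nuclei, 59.8% had a UMI of a clustered gene and 24.3% had UMIs of at least 2 different genes, with a mean of 0.951 genes and a highest number of 8. In jugular-like nuclei of that depth 65.9% had one. The number of genes a neuron uses cannot be read at this depth.

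A threshold of 20 UMIs set which members were kept. *Pcdha2* (20), *Pcdhb6* (21) and one of the entries named *Pcdha11* (21 UMIs) were just inside, and *Pcdha6* (19), *Pcdha7* (19), *Pcdhb8* (17) and *Pcdha3* (15) just outside. The other genes not kept were *Pcdhgb1* (14), *Cdh26* (11), *Pcdha8* (11), *Pcdhac1* (9), *Cdh16* (8), *Pcdhga4* (5), *Cdh17* (3) and *Pcdhb1* (3).

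Between the libraries, over all nuclei, 3 of the 80 were over 2-fold higher in the male library (*Pcdh8*, *Pcdhb4* and *Pcdhb5*), 3.75% against 2.18% of all genes, and 11 were as much higher in females, 13.8% against 4.85%. Of these 11, 4 lay outside the clusters (*Cdh13*, *Cdh22*, *Cdh23* and *Cdh7*). The others were gamma protocadherins, some with few UMIs, such as *Pcdhgb2* with 12 male and 27 female. *Cdh7* stood out with 525 female and 51 male UMIs, a log2 ratio of -4.02. Its highest class was the granule cell-like one, which held 464 female and 24 male nuclei and in which it was at a level of 2.0 in the female library. With each class given equal weight, 7 members passed 2-fold in place of 14. Within the 13 classes with at least 50 nuclei in each library, 52 of 294 pairs of a member and a class were past 2-fold, 17.7% against 8.43% of all pairs, and of these 23 were higher in the male and 29 in the female library. Without the pituitary cell-like class the shares were 15.2% and 7.97%.

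*Cdh13* was lower in the male library within the endothelial class, with a log2 ratio of -2.03 [-2.19 to -1.86]. The *Bmx* cluster held 81 female and 23 male nuclei, and the *Slco1a4* cluster 140 and 189. Within the clusters, a split chosen after seeing the data, the log2 ratio was -0.80 [-1.03 to -0.57] and -1.45 [-1.71 to -1.19]. *Cdh13* was also lower in the male library in barrier fibroblast-like nuclei (1.10 female, 0.431 male) and in the *Cldn1* and *Itgb4* class (1.44 and 0.538). *Pcdh1*, which lies on chromosome 18, was higher in the male library in 13 of 13 classes, with a mean log2 ratio of 0.68 and single ratios from 0.11 to 1.34 with 0.5 UMIs added to each sum. Its interval excluded 0 in classes such as the myelinating one (1.11 [0.43 to 1.82]) and not in others such as the nodose-like one (0.22 [-0.05 to 0.50]). Over all nuclei *Pcdh1* was at 0.510 (male library) and 0.341 (female library). Per 100 kb of gene it was at 1.75 in macrophage-like and 1.17 in pituitary cell-like nuclei over both libraries. Not all of the 13 classes were thus above background.

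Pituitary cell-like nuclei held several of the other ratios past 4-fold. *Pcdh15* had 68 male and 2 female UMIs (log2 ratio 5.12 [3.22 to 8.2]), *Pcdh17* 41 and 6 (2.81), *Cdh10* 70 and 11 (2.71), *Cdh8* 4 and 19 (-2.21) and *Pcdh11x* 43 and 248 (-2.49). The hormone genes of this class differed too, with *Pomc* at 334 male and 1 female UMIs, *Gh* at 220 and 55, *Prl* at 167 and 995 and *Pou1f1* at 40 and 126. The whole pituitary list of 6 genes, all above 0 in both libraries, summed to a level of 36.3 (female library) and 24.4 (male library), and its part in the ratios of the cadherins was not tested. *Cdh19* in macrophage-like nuclei had 60 male and 9 female UMIs (2.53 [1.51 to 3.73]), 17 of them in 1 male nucleus. The list of 9 myelinating Schwann cell genes, all above 0 in both libraries, summed to 15 in the male and 8.90 in the female macrophage-like nuclei, and its part in this was not tested. *Cdh7* in nodose-like nuclei had 7 male and 27 female UMIs (-3.12), where the 8 granule cell genes, all above 0 in both libraries, summed to 0.136 and 0.492, and their part was not tested. *Cdh20* in fibroblast-like nuclei had 7 male and 32 female UMIs (-2.09 [-3.51 to -0.88]), 13 of which came from 1 female nucleus.

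**Figure D5:**
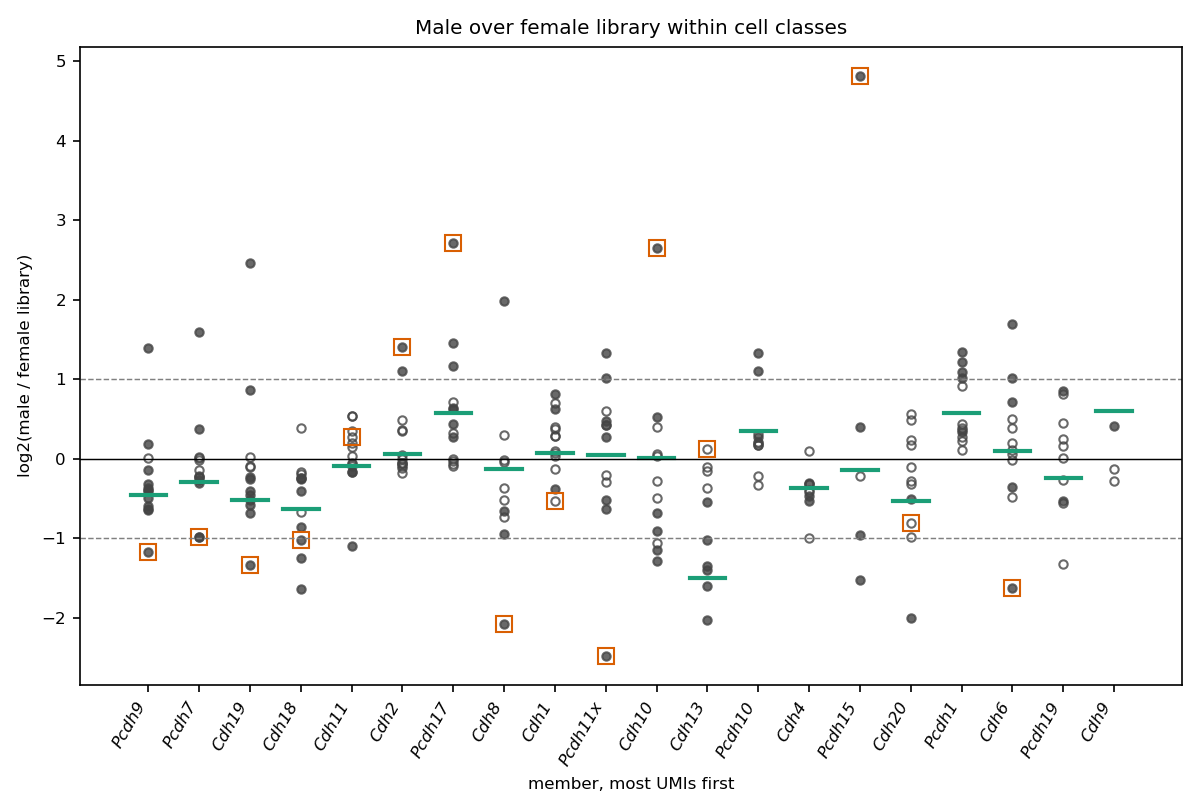
Log2 ratio of the male over the female library for the 20 members with the most UMIs that could be compared, 1 point for each class, filled where the exact 95% interval excludes 0, with 0.5 UMIs added to each sum. Orange squares mark the pituitary cell-like class, green bars the ratio over all nuclei and dashed lines 2-fold, and all points of *Pcdh1* lie above 0.

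Of the other genes of cadherin adhesion, none of 11 catenins and partners was 3 times higher in 1 class than in every other, against 6.31% of all genes. *Ctnna1* was at 3.93 in the *Fabp7* and *Col28a1* glia and 3.45 in the next class, while *Ctnna2* and *Ctnna3* differed between classes. *Ctnna2*, the neural alpha catenin, was at 50 in nodose-like and 50.9 in other neuron-like nuclei and at 4.02 in the *Fabp7* and *Col28a1* glia. *Ctnna3* was at 41.7 in myelinating Schwann cell-like nuclei and 21.6 in the *Prr5l* and *Pou3f1* class, against 5.31 in nonmyelinating nuclei. *Ctnnd2* (delta catenin) was at 20.4 in the *Fabp7* and *Col28a1* glia against 1.23 in nonmyelinating nuclei, and *Vcl* was highest in mural cell-like nuclei at 5.55. Of 7 desmosomal genes with at least 20 UMIs, *Pkp1* (0.721) and *Dsg3* (0.123) passed 3-fold, both in sympathetic neuron-like nuclei, of which 9 were female and 148 male. *Fat2* did so in granule cell-like nuclei (2.13), 1 of 10 Fat, Dachsous and flamingo genes, and *Clstn2* in the *Cldn1* and *Itgb4* class (8.75), 1 of 3 calsyntenins. None of 10 genes of cadherin processing passed.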

How the data were processed

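RNA of single nuclei was sequenced from 1 pooled library of each sex. The deposited values are UMI counts of each gene in each nucleus, which the authors made with Cell Ranger 7.1.0 on mm10 with introns, which counts reads on the strand of the gene. They removed debris with DIEM, kept nuclei by genes and UMIs, and joined the libraries. The treatment of reads in overlapping genes is not stated. The spread between animals cannot be seen in pooled libraries.

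Nuclei were assigned to a sex because the number of nuclei in each library equals that stated for the sex. From the counts, 2000 variable genes per library (2878 joined), 30 principal components, 15 neighbours and Leiden clustering at resolution 1 in scanpy 1.11.5 gave 29 clusters. Left out of this were 211 genes, including every *Cdh* and *Pcdh* gene. Clusters took the name of a marker list, and the limits for a name were set after the clusters were seen. Classes of under 50 nuclei (astrocyte-like and skeletal muscle-like) were set aside. No doublet caller was run, because possible doublets were removed before deposit. A level is the sum of UMIs of a gene over all UMIs of the class, times 10000. Library totals were 17435300 (female) and 27529730 (male) UMIs.

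Members and gene lists were chosen with earlier results of these data known. Named with values were the 12 members with the most UMIs, those 3 times higher in 1 class, the highest member of each class and those past 4-fold between libraries within a class. Other members were named by their highest class, and ratios between clusters were chosen after the values were seen. The level and ratio code was tested on simulated counts. Gene positions are those of GENCODE vM21.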

Additional observations from a re-analysis of the deposited data

Results flagged for a closer look

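The 17 results given here are log2 ratios of the male over the female library that lie past 2-fold in opposite directions in different classes for the same gene. In each case the difference between the classes was not tested, and there was 1 library of each sex. *Cdh10* was 2.71 in pituitary cell-like nuclei and -1.15 and -1.33 in nonmyelinating Schwann cell-like nuclei and the *Cldn1* and *Itgb4* class. *Cdh19* was -1.37 in pituitary cell-like and 2.53 in macrophage-like nuclei. *Cdh6* was -1.73 in pituitary cell-like nuclei, 1.80 in the *Cldn1* and *Itgb4* class and 1.04 in barrier fibroblast-like nuclei. *Cdh8* was -2.21 in pituitary cell-like nuclei and 2.17 in the *Fabp7* and *Col28a1* glia, where its level of 0.120 was below that of macrophage-like nuclei (0.176). *Pcdh11x* was -2.49 in pituitary cell-like nuclei, 1.38 in the *Fabp7* and *Col28a1* glia and 1.04 in the *Prr5l* and *Pou3f1* class. *Pcdh15* was 5.12 in pituitary cell-like and -1.55 in barrier fibroblast-like nuclei, the latter from 14 male and 28 female UMIs. *Pcdh9* was -1.18 in pituitary cell-like and 1.40 in macrophage-like nuclei. The pituitary cell-like class is in every one of these 7 genes, and its hormone genes differed between the libraries, as given above. Its part in these ratios was not tested.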

How the results depend on the processing

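The count of members that met the 3-fold rule (3) was 5 with clusters rebuilt as after cellranger reanalyze, 5 in nuclei of over 2000 UMIs, 6 in the female library alone, 6 in the male library alone and 10 at 2-fold. Members highest in a neuron class (23) were 12 in the male library alone, where the granule cell-like and inhibitory neuron-like classes held under 50 nuclei. Of the 32 members outside the clusters, 19 kept their highest level within 1.5-fold under the rebuilt clustering and 15 in the male library alone. The summed clustered protocadherin level of nodose-like nuclei (1.02) was 1.11 under the rebuilt clustering, 1.21 in females and 0.937 in males. Members past 2-fold between the libraries (14) were 7 as a mean over classes and 9 with a minimum of 50 UMIs. Of 104 values of the log2 level in the highest class over the next, for 14 named members, 78 moved by less than counting error, 19 by more, and 7 turned. Those that turned were *Cdh1* (-0.13 under the rebuilt clustering, -0.052 in the female library), *Pcdh9* (-0.0043), *Cdh18* (-0.42) and *Cdh8* (-0.068) as a mean over nuclei, and *Pcdh11x* (-0.34) and *Cdh10* (-0.47) in the male library. The cause was not tested. The rebuilt clustering put 72.5% of nuclei in the same class and gave 12 classes, against 98.5% with the members kept in the clustering and 97.1% with genes scaled within each library. No paired analysis was possible because each sex has 1 library and no result comes from a test.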
